A study of Drosophila melanogaster with 4 samples.

Results

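Narrow, strong RNA polymerase II regions on chromosome arms 2L, 3L and 3R of Drosophila melanogaster are described here: 293 of the 5288 enriched regions in the authors' list for the whole series. They were chosen by measured values. A region had to lie on one of these 3 arms, to be at most 3000 bp wide, to have a deposited score of at least 1.9 in the series list, and to overlap by 1 bp or more an enriched region in the list of each ChIP replicate. The files do not name the unit of the score; it was inferred from the values to be log2, and the ratio behind it is unknown. Scores, widths and presence in the replicate lists are therefore given as description, with no test. Of the 2958 enriched series regions on these arms, 9.91% met the whole rule.

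The study mapped RNA polymerase II by chromatin immunoprecipitation and sequencing in Kc167, an established embryo-derived cell line that the labels give as female, of late embryonic origin and of genotype se/e. The antibody, ab5408, targets the heptapeptide repeat of the carboxy-terminal domain. The labels give no treatment. All samples come from this line: replicates 1 and 2 of the ChIP, and replicates 1 and 2 of the input. All were fixed in 1.8% formaldehyde for 10 min, and the antibody step lasted 15 hours. The ChIP libraries have a region list each. The input libraries have none and were not analysed here. Nothing says whether the replicates were separate cultures, so the spread between them may be technical. With 1 group of 2 libraries, no test between groups was possible.

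RNA polymerase II transcribes protein-coding genes and many small nuclear RNA genes. After it starts, the enzyme often halts a short way into the gene, held by the factors DSIF and NELF, until the kinase P-TEFb releases it into elongation. In Drosophila such promoter-proximal pausing was first described at heat shock genes and is known at many developmental genes. In maps of this kind, paused polymerase and transcription of a very short gene both give a compact region, while polymerase travelling along a longer active gene gives a broad one. The files give positions in FlyBase release 5 and no gene names. The available gene table uses release 6, so no gene was assigned to a region by position and no sequence is printed.

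ChIP replicate 1 had 4997 enriched regions, 2877 of them on 2L, 3L and 3R. Replicate 2 had 4967, with 2839 on these arms, and the series list had 2958 there. The files hold no read counts, so the depth of the libraries is unknown.

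The narrow strong regions were a small and compact group. Together they spanned 0.713 Mb, which is 0.945% of the 75.5 Mb of these arms and 5.64% of the length covered by enriched regions there. By comparison, 336 regions on the same arms had scores as high but were over 3000 and up to 10000 bp wide (medium strong), 109 were wider still (broad strong), and 927 were as narrow but scored under 1.9 (narrow weak). All of these were present in both replicates. The median series score was 2.57 for the narrow strong regions, 2.32 for medium strong and 2.21 for broad strong regions. The highest scores were 4.28, 3.71 and 3.19 in the same order, so among these groups the top scores belonged to narrow regions. Score and width both defined the groups, and how the score depends on the width of a region is not stated. Whether this order follows from width was not tested, and it does not compare amounts of polymerase.

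**Figure D1:**
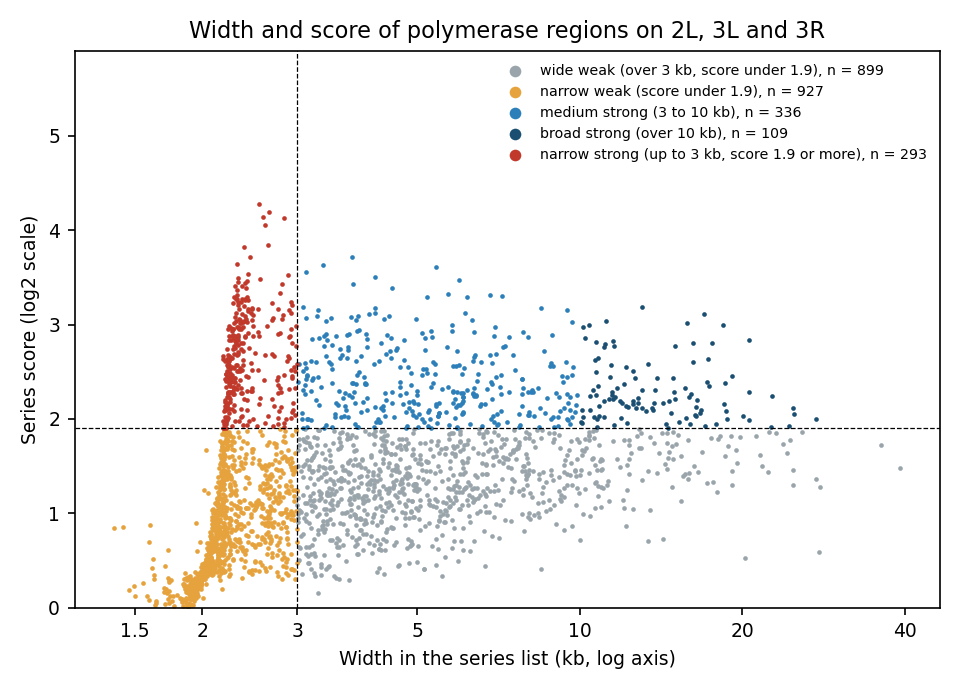
Series score (log2 scale) against width (kb, log axis) for the 2564 enriched regions on 2L, 3L and 3R that were present in both replicates. Each point is 1 region, and the dashed lines mark the rule's limits of 1.9 and 3000 bp. The 293 narrow strong regions form a steep left edge whose narrowest width is 2182 bp, and the highest score of the plot, 4.28, is among them.

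Presence in both replicates removed few candidates. Before that step, 310 regions on these arms met the score and width limits, and 293 of them, or 94.5%, had a region in both replicate lists (exact 95% interval 91.4 to 96.8, counting error only). Over all enriched series regions on these arms the share was 86.7%. Since the rule itself requires presence, nothing is read from this contrast. The 17 candidates left out were in neither replicate list.

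The regions nearest to the limits are given as a description. The lowest-scoring members had series scores of 1.9001 (2L from 19864884 to 19867095), 1.9068 (3R from 5699343 to 5701542) and 1.9085 (3R from 9129443 to 9131629). Just below the limit stood 3L from 21489300 to 21492081 at 1.8949, 3L from 439864 to 442852 at 1.8804 and 3R from 18491427 to 18493636 at 1.8779. The widest members measured 2993 bp (3L from 16639656), 2987 bp (2L from 1076557) and 2985 bp (3R from 8301986). The narrowest strong regions beyond the width limit measured 3014 bp (3L from 9880504), 3020 bp (2L from 5144571) and 3061 bp (3L from 14401734).

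The strongest narrow regions had nearly the same scores in both libraries. The best mean rank belonged to 2L from 21213748 to 21216299, with a score of 4.27 in replicate 1 and 4.30 in replicate 2. Next came a pair on 2L: the region from 13214718 to 13217381 scored 4.24 and 4.17, and the region from 13243238 to 13246074 scored 4.09 and 4.16. The latter and 3R from 19683893 to 19686484, which scored 4.14 in both, changed places between replicates. On 3L, the region from 3089694 to 3092310 scored 4.03 in replicate 1 and 4.07 in replicate 2. No other narrow strong region reached 4 in either replicate.

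The remaining regions of this top group ranged lower. The region on 3L from 1462492 to 1465144 scored 3.89 and 3.83, and that on 3R from 3918635 to 3921025 scored 3.82 and 3.8. They were followed by 3R from 10956324 to 10958774 (3.73 and 3.72), 3L from 15227627 to 15229949 (3.60 and 3.68) and, tied in rank, 2L from 900299 to 902733 (3.51 and 3.57) and 2L from 9780889 to 9783775 (3.60 and 3.49). Of the 10 highest narrow strong regions of replicate 1, 9 were among the 10 highest of replicate 2, and of the 50 highest, 47 were.

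**Figure D2:**
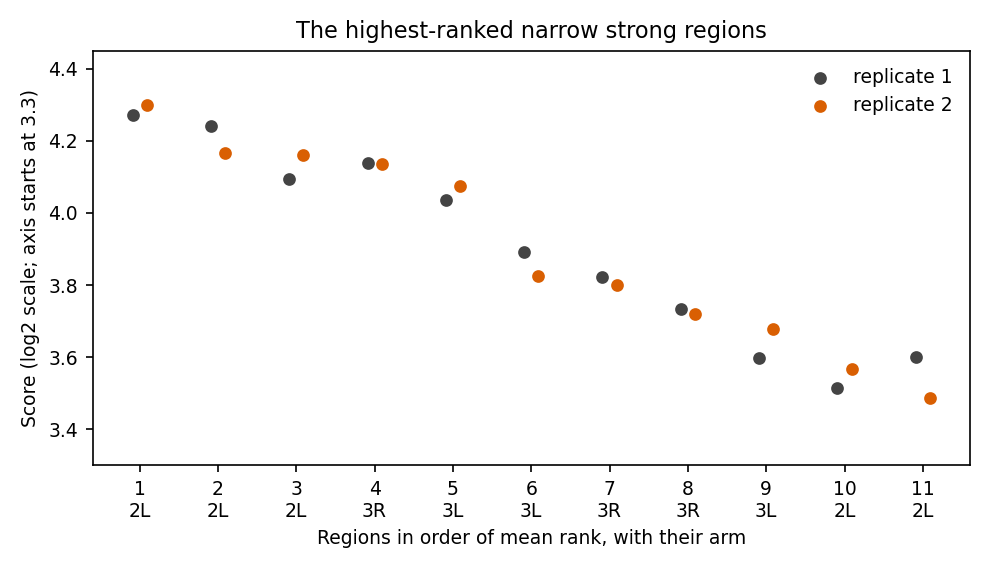
Scores (log2 scale, axis from 3.3) of the narrow strong regions with the best mean rank over both replicates, in order of rank and with their arm; each point is 1 library and there are no error bars. The first stands at 4.27 and 4.30. Between regions next to each other in the plot, the points overlap in height only for 2L from 13243238 with 3R from 19683893, and for 2L from 900299 with 2L from 9780889.

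The surroundings of these top regions differed widely. The first, on 2L from 21213748, had another enriched region 454 bp to its right, and 3R from 10956324 had one 27 bp to its right. The region on 2L from 13214718 had neighbours on both sides, at 1500 and 1304 bp. In contrast, 3L from 15227627 stood 70.5 kb and 59.6 kb from its neighbours, and 3R from 19683893 stood 29.1 kb and 28.0 kb from them. A high score thus occurred both beside other polymerase regions and far from any.

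Widths of the narrow strong regions were concentrated in a narrow band. The narrowest measured 2182 bp (2L from 21458292 to 21460473), the median was 2342 bp and the quartiles were 2260 and 2534 bp. Of the 293, 100 were 2200 to 2299 bp wide and 75 were 2300 to 2399 bp wide. The number fell to 11 at 2500 to 2599 bp and 11 at 2600 to 2699 bp. It was 17 at 2700 to 2799 bp, 15 at 2800 to 2899 bp and 22 at 2900 to 3000 bp. The distribution thus had a peak near its lower end and low counts above 2500 bp that were highest next to the limit of the rule. Enriched regions of the series list can be as narrow as 1001 bp, and the 17 candidates absent from the replicate lists were 1001 to 2082 bp wide, so the lower end of the members' widths depends on the presence step.

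**Figure D3:**
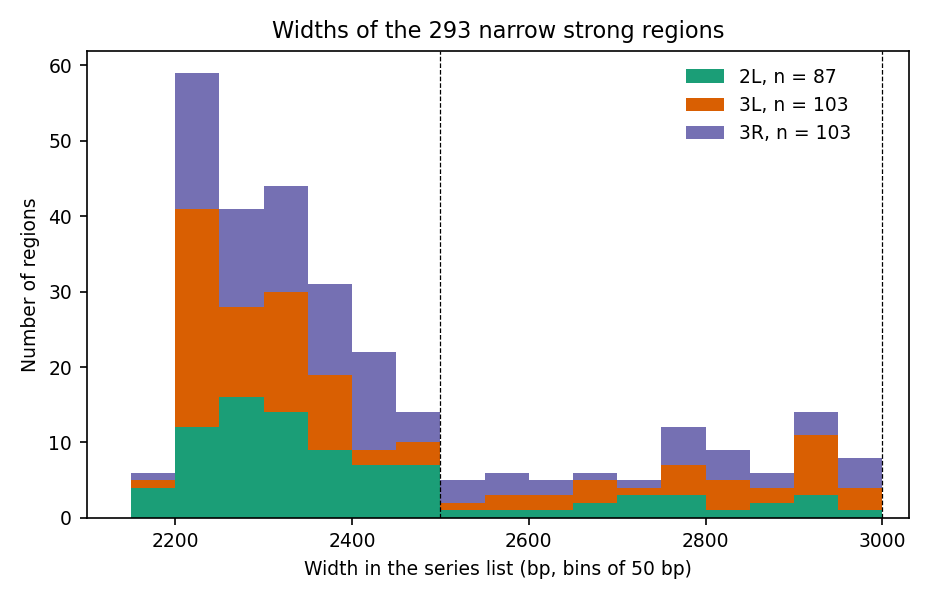
Number of narrow strong regions by width in the series list (bp, bins of 50 bp), stacked by arm (2L, n = 87; 3L, n = 103; 3R, n = 103). Dashed lines mark 2500 bp, which separates the 217 compact from the 76 wider members, and the limit of 3000 bp.

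Among narrow regions present in both replicates, few stronger ones were at the lowest widths. Among those scoring under 0.25, the 5th percentile of width was 1625 bp (n = 95), and it was 2039 bp at scores from 0.5 to 0.75 (n = 157) and 2167 bp at 1.5 to 1.9 (n = 115). Inside the chosen range it was 2200 bp at 1.9 to 2.3 (n = 82), 2246 bp at 2.7 to 3.1 (n = 68) and 2309 bp at 3.1 and above (n = 53). This order rests on presence in both replicates. A comparison over all narrow enriched regions of the series list on these arms was added after seeing the data. There the 5th percentile did not rise steadily. It was 1206 bp under 0.25 (n = 213), 2140 bp at 1.25 to 1.5 (n = 99) and 1178 bp at 1.9 to 2.3 (n = 89). Above that it was 2187 bp at 2.3 to 2.7 (n = 94), 1673 bp at 2.7 to 3.1 (n = 72) and 2292 bp at 3.1 and above (n = 55). Across the 293 members, width and score had a Spearman rho of 0.27 and a Pearson r of 0.14. The points share both libraries, and how the caller sets its edges is not stated, so how far width follows from score by construction was not tested.

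Every narrow strong region was met by exactly 1 region in each replicate. The same held for all 927 narrow weak regions, whereas it held for 310 of 336 medium strong regions (92.3%) and for 81 of 109 broad strong ones (74.3%). The others were met by more than 1 region in at least 1 library. Regions met by exactly 1 region in each replicate are called matched 1 to 1. Whether that replicate region also met another series region was not examined. The regions found in the replicates were as compact as those of the series list: their median width was 2323 bp in replicate 1 and 2305 bp in replicate 2, and over both they ran from 2165 to 3088 bp. Only 1 exceeded 3000 bp in either list. Replicate 1 had the wider region at 186 places, replicate 2 at 104, and at 3 the widths were equal.

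The edges of narrow strong regions lay close together in both libraries. The median distance between the replicates was 10 bp for starts and 10 bp for ends, and the upper quartiles were 20 and 22 bp. In narrow weak regions both medians were 21 bp, in medium strong regions they were 27.5 and 29.5 bp, and in broad strong regions 30 and 29 bp, over the regions matched 1 to 1. Narrow strong regions of the X, chosen by the same limits (n = 74), had medians of 12 and 10 bp, so close edges were not particular to the 3 arms. The 90th percentiles for starts and ends were 130 and 141 bp in narrow weak regions and 208 and 211 bp in medium strong ones. In broad strong regions they were 201 and 311 bp, and on the X 60.7 and 43.8 bp. In the members they were 42 and 47.8 bp. At 243 of the 293 members, or 82.9%, both edges lay within 50 bp, a share not given here for the other groups. The largest distance was 415 bp at a start and 265 bp at an end. Distances did not follow score within the group, with a Spearman rho of 0.01 and a Pearson r of -0.07 across the members.

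Compact members were placed more closely than wider ones. For the 217 under 2500 bp the median distances were 8 bp for starts and 7 bp for ends, with 90th percentiles of 27.4 and 33.8 bp. For the 76 members of 2500 bp or more they were 23 and 16.5 bp, with 90th percentiles of 127 and 81.5 bp. The score ranges of these subgroups overlapped almost fully, with medians of 2.57 and 2.63 and ranges of 1.9 to 3.82 and 1.92 to 4.28.

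The replicate scores of the narrow strong regions differed little. Scores ran from 1.81 to 4.27 in replicate 1, with a median of 2.61, and from 1.83 to 4.30 in replicate 2, with a median of 2.58. The mean difference, replicate 2 minus replicate 1, was 0.0009 with an SD of 0.106 over the 293 regions, and replicate 2 was higher at 152 of them. At 284, or 96.9%, replicates 1 and 2 differed by no more than 0.25. Shares were similar elsewhere on these arms: 96.0% in narrow weak, 94.35% in medium strong and 92.7% in broad strong regions. Among all 2564 regions in both replicates it was 95.05%, so differences this small were not particular to the members. Between-replicate SDs of the difference were 0.118 in medium strong, 0.180 in broad strong and 0.138 in narrow weak regions, over all regions of each group. Where a replicate had more than 1 region at a place, the highest-scoring one was used. In medium and broad strong regions the replicate scores can therefore belong to different stretches. How the libraries were scaled against each other is not known, so a mean difference near 0 does not compare their level of enrichment.

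**Figure D4:**
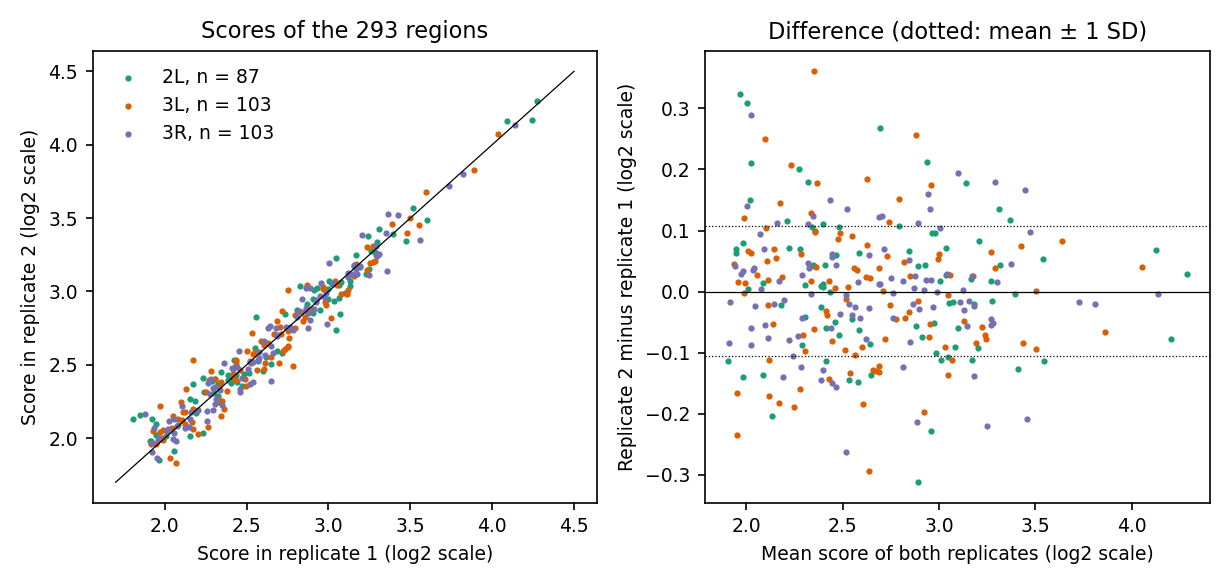
Scores of the 293 narrow strong regions in replicate 1 and replicate 2 (left, log2 scale, with the line of equality) and their difference against the mean (right, solid line at 0, dotted lines at the mean ± 1 SD of 0.106). Points are regions, coloured by arm, and all differences lie between -0.31 and 0.36.

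The spread of the difference varied somewhat with score. With the members divided into 4 groups of nearly equal size by series score, the SD was 0.122 in the lowest group (1.9 to 2.29), 0.0974 in the next (2.29 to 2.57), 0.116 in the one above (2.58 to 2.97) and 0.0856 in the highest (2.98 to 4.28). In the highest group all 73 regions lay within 0.25. Where the replicates differed in score they tended to differ in width in the same direction: at 194 of the 293 places the library with the higher score had the wider region, and the Spearman rho of both differences was 0.42 (Pearson r 0.23). These values share their libraries and are descriptive.

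A few members differed more between libraries. The largest difference was at 3L from 6971401 to 6974187, with 2.17 in replicate 1 and 2.53 in replicate 2. At 2L from 13329961 to 13332175 the scores were 1.81 and 2.13, and at 2L from 13397914 to 13400354 they were 1.85 and 2.16. In the opposite direction, 2L from 1419273 to 1421546 scored 3.05 in replicate 1 and 2.74 in replicate 2, and 3L from 19162556 to 19164818 scored 2.79 and 2.49. In all, 3 members scored under 1.9 in replicate 1 and 4 in replicate 2, and none did so in both.

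The series score lay close to the replicate scores. It fell between them at 232 of the 293 places, below both at 58 and above both at 3, with a median difference from their mean of -0.01. The farthest below was 2L from 13512201 to 13515100, with 2.64 in the series list against 2.91 and 3.01 in the replicates. There the series region was 2900 bp wide and the replicate regions 2305 and 2289 bp, so these scores cover different stretches. Of all the members, 1 had a series score that was repeated exactly elsewhere in the series list.

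Narrow strong regions occurred at similar densities on the 3 arms. There were 87 on 2L, 103 on 3L and 103 on 3R, which is 3.78 per Mb on 2L (exact Poisson 95% interval 3.03 to 4.66), 4.20 on 3L (3.43 to 5.09) and 3.69 on 3R (3.01 to 4.48). These intervals overlap, and they cover counting error only and treat regions as independent. As a share of the enriched regions of each arm they made up 9.91% on 2L, 10.3% on 3L and 9.51% on 3R. Applied to the X, the same limits gave 74 regions, or 3.3 per Mb (2.59 to 4.14) and 7.88% of the enriched regions there (exact 95% interval 6.24 to 9.79), against 9.91% on the 3 arms together (8.85 to 11.04). The intervals overlap. Median scores were 2.63 on 2L, 2.55 on 3L, 2.61 on 3R and 2.59 on the X, and median widths 2333, 2329, 2373 and 2329 bp.

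Along the arms the narrow strong regions were spread over the whole length. With each arm cut into 5 equal parts, numbered from coordinate 1, their share of the enriched regions lay between 7.65% (last part of 3L, 15 of 196) and 13.7% (first part of 3L, 29 of 211). On 2L the highest share was in the second part (24 of 194, 12.4%) and on 3R in the last (24 of 192, 12.5%). Exact 95% intervals of the extremes, 4.35 to 12.3% and 9.40 to 19.1%, overlap. Over 74 whole bins of 1 Mb the median was 4 members, the highest was 9 (3L from 17000001 to 18000000, among 48 enriched regions), and 3 bins had none.

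The bins without a narrow strong region were not without polymerase. On 2L the bin from 17000001 to 18000000 held 14 enriched regions. On 3L that from 23000001 to 24000000 held 30, and on 3R that from 2000001 to 3000000 held 20. Across bins the number of members and that of all enriched regions had a Spearman rho of 0.39, a description in which the members are part of both counts. The longest stretch between neighbouring members was 2.37 Mb of 3R, from 1344108 to 3711241. It held 60 enriched regions of other kinds, 6 of them strong in both replicates but wider than 3000 bp. The next 2 stretches lay on 2L, from 16817886 to 18150994 (1.33 Mb, 22 enriched regions) and from 15276117 to 16449995 (1.17 Mb, 24 enriched regions).

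Gaps to other polymerase regions were longer at narrow strong regions than in the medium strong, broad strong and narrow weak groups of the same arms; no test was run, since regions are not replicates. The median gap to the nearest enriched region of the series list was 5.58 kb, with quartiles of 1.93 and 16.1 kb. It was 2.89 kb for medium strong, 1.61 kb for broad strong, 2.93 kb for narrow weak and 2.56 kb for all 2564 regions in both replicates. Of the narrow strong regions, 64, or 21.8%, had no enriched region within 20 kb (exact 95% interval 17.2 to 27.0). The share was 8.93% for medium strong regions (6.11 to 12.5), 7.34% for broad strong regions (3.22 to 13.95) and 11% for narrow weak regions (9.06 to 13.2), and these 3 intervals did not overlap that of the narrow strong regions. Narrow strong regions of the X had a median gap of 3.72 kb and a share of 13.5% beyond 20 kb (6.68 to 23.5), an interval that does overlap it. The intervals treat regions as independent, which they are not, so whether they overlap is not a test of a difference. The position of neighbours was not used by the rule, but width was, and how the caller joins nearby signal is not stated. How far the gaps follow from the width limit was not tested. In the replicates' own lists, the median gap was 6.08 ± 0.35 kb and the share beyond 20 kb 22.2 ± 0.97% (SD, n = 2).

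**Figure D5:**
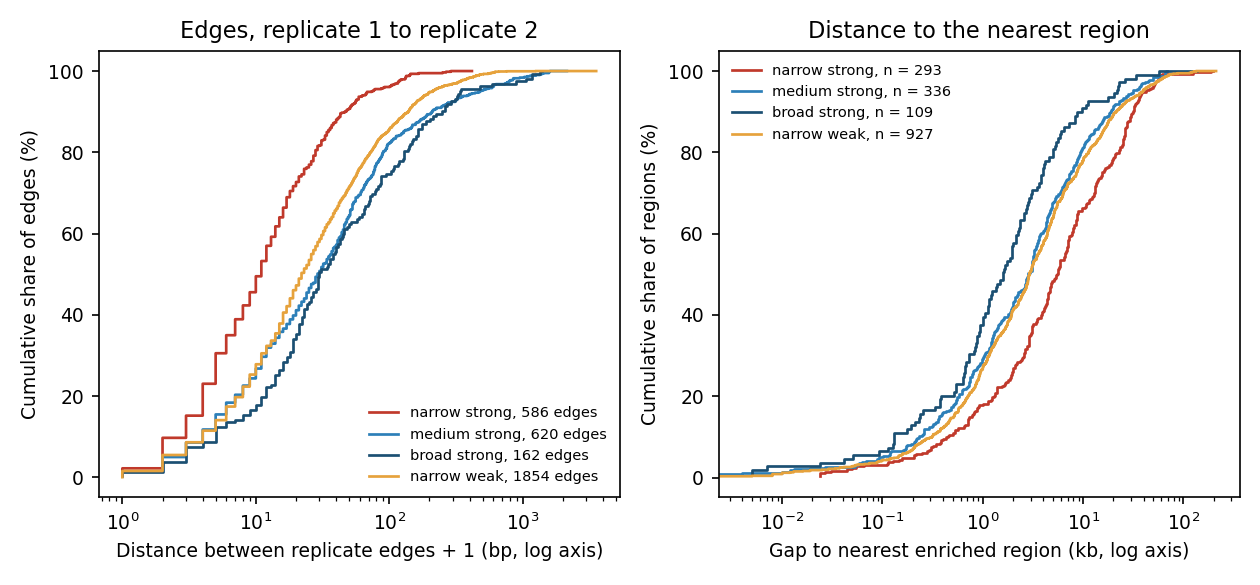
Cumulative shares for narrow strong, medium strong, broad strong and narrow weak regions of the distance between replicate edges (left, bp plus 1, log axis, starts and ends together, regions matched 1 to 1) and of the gap to the nearest enriched region (right, kb, log axis). The curve of the narrow strong regions is leftmost in the first panel, with medians of 10 bp, and rightmost over most of the second, with a median gap of 5.58 kb.

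Among the members, isolation went with compactness and was not evenly shared. Of the 217 members under 2500 bp, 60 (27.6%, exact 95% interval 21.8 to 34.1) were more than 20 kb from any enriched region, against 4 of the 76 wider ones (5.26%, 1.45 to 12.9). Their median gaps were 6.86 and 3.05 kb. Narrow weak regions, with a median width of 2177 bp, had 11% beyond 20 kb and a median gap of 2.93 kb. On 3L 30 of 103 were this isolated (29.1%, 20.6 to 38.9), on 2L 16 of 87 (18.4%, 10.9 to 28.1) and on 3R 18 of 103 (17.5%, 10.7 to 26.2). Isolated members were found at all scores. In the highest of the 4 score groups 20 of 73 were isolated and in the lowest 11 of 74, and across members the Spearman rho of score and gap was 0.13 (Pearson r 0.09).

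The most isolated members stood alone in long stretches. On 2L, the region from 14688170 to 14690395 scored 2.65 in replicate 1 and 2.5 in replicate 2, and its neighbours were 196 kb to the left and 306 kb to the right. The region on 2L from 1419273 to 1421546, one of those with a large replicate difference, had its neighbours at 232 and 189 kb. On 3L, the region from 13220660 to 13222991 scored 3.50 in both replicates, with neighbours at 179 and 126 kb. Also on 3L, the region from 20941462 to 20943682 scored 2.56 and 2.47 and lay 61.6 and 72.3 kb from its neighbours. With 3L from 15227627, described above among the strongest, these were the 5 largest gaps. In all, 12 members had no enriched region within 50 kb.

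At the other end, 52 members (17.7%, exact 95% interval 13.5 to 22.6) had an enriched region less than 1 kb away, against 29.5% of medium strong (24.6 to 34.7) and 37.6% of broad strong regions (28.5 to 47.4). On the X the share of narrow strong regions was 25.7% (16.2 to 37.2), an interval that overlaps that of the members. For 8 members the gap was under 100 bp, and the smallest was 24 bp. The kinds of region that flanked members occurred in shares near those on the arms as a whole. Of the 584 flanks of members, 211 were narrow weak regions, 167 wide weak ones (over 3000 bp, score under 1.9), 70 other members, 59 medium strong and 14 broad strong regions, and 63 were not in both replicates. Weak regions of both widths made up 64.7% of the flanks and 61.7% of all enriched regions there. The flanks had a median score of 1.27. At 235 of the 291 members with a flank on each side, or 80.8%, the member scored above both, against 78.0% of medium strong and 76.1% of broad strong regions. A high score was a condition for all of these groups.

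Members were direct neighbours of each other about as often as their share of all regions: 12.0% of their flanks were members, against 9.91% of all enriched regions on these arms. Their median distance to the nearest other member was 76.7 kb (quartiles 35.4 and 164 kb), and 66 of the 293 had another member as their direct neighbour. The closest pair was on 2L, where the region from 5026266 to 5028519 and the region from 5028544 to 5030783 were 24 bp apart. The left one scored 2.68 and 2.60 and the right one 2.40 and 2.40 in replicates 1 and 2. On 3L, the regions from 21194583 and from 21197577 were 531 bp apart, with 2.65 and 2.56 on the left and 2.13 and 2.18 on the right. The next pairs were 2546 bp apart (3R from 19045974 and from 19051279), 2912 bp apart (3R from 20368338 and from 20373671) and 3112 bp apart (3L from 16639656 and from 16645761). In each of these 5 pairs the same partner was the higher one in both replicates.

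The narrowest member belonged to a row of evenly spaced regions. A run was defined as at least 3 consecutive enriched regions whose starts are 4 to 6 kb apart, each spacing within 10% of the median of the run. There were 31 such runs on the 3 arms, 30 of them with 3 regions, and 5 runs held a member. The longest run had 6 regions, on 2L from 21453417 to 21480655, with a median spacing of 5043 bp and spacings from 4875 to 5057 bp. Its member, from 21458292 to 21460473, scored 2.55 in replicate 1 and 2.62 in replicate 2. The other regions of the row had series scores from 1.25 to 1.85, below the limit. That from 21453417 had no region in replicate 2, and that from 21468392 scored 1.81 in replicate 1 and 0.88 in replicate 2. The other 4 members in runs lay in runs of 3 regions. On 2L they began at 65957, 3017038 and 20921701, and on 3L at 7801102. Their scores in replicate 1 and replicate 2 were 2.33 and 2.37, 3.05 and 3.23, 2.05 and 1.92, and 3.02 and 2.82, in that order.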

How the data were processed

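The authors deposited 3 lists of regions in GFF3 format, 1 per ChIP library and 1 for the series. Per the file headers, coordinates are of FlyBase release 5, 1-based. Bowtie 0.12.7 is named in the submitters' processing notes. How regions were called, against which control, and how replicates were combined: not given in the sources used here. The deposited score was read as log2: of the pairs of scores that recur exactly in the series list, 16 of 2926 differed by the log2 of 3, 5, 6, 7 or 9 (tolerance 1e-06), as did 7 of 4095 in replicate 1 and 4 of 2346 in replicate 2, and 0 by their natural logs or log10 in any list.

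Regions typed as depleted were left out. In each replicate the highest-scoring overlapping region gave the score and edges. Gaps are base pairs between neighbouring enriched regions. Exact intervals (Clopper-Pearson, Poisson) cover counting error only. Computations used Python 3.11.15 with pandas 2.3.3, numpy 2.4.6 and scipy 1.17.1, and plots matplotlib 3.10.9. On 2000 simulated regions, the code for the rule was tested and found 345 of 345 members, with 0 wrong. The members, comparison groups and limits were chosen with earlier results of these data known. Regions named are the 10 of best mean rank, the 5 of largest replicate difference, the 5 most isolated, the 5 closest pairs, those next to the limits, the narrowest and widest, and members of runs. The bins of 1 Mb, the parts of arms and the longest stretches were added afterwards. Planned counts at annotated starts need a release 5 annotation and were not run.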

Additional observations from a re-analysis of the deposited data

How the results depend on the processing

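Requiring 50% overlap of both regions, or presence in replicate 1 or 2 alone, changed none of the results (293 members, 100% matched 1 to 1, median width 2342 bp, 3.78, 4.20 and 3.69 per Mb, gaps of 5.58 and 76.7 kb). Leaving out a replicate could not change the members, since the 17 candidates left out by the presence step were in neither replicate list. With 1 replicate there was no distance between edges and no score difference. A limit of 2.5 on the score left 166 members, with a median width of 2371 bp, an SD of the score difference of 0.100, densities of 2.09, 2.40 and 2.11 per Mb on 2L, 3L and 3R, a median gap of 6.44 kb to the nearest region and 168 kb to the nearest member. A limit of 2500 bp on the width left 217, with 2303 bp, a distance of 8 bp between edges, densities of 3.00, 2.97 and 2.69 per Mb, and gaps of 6.86 and 123 kb. The order of the arms changed under both limits: 2L fell below 3R under the first and lay just above 3L under the second. Merging regions under 500 bp apart gave a median gap of 6.73 kb, and neighbours from the replicate lists, chosen after seeing the data, 6.08 kb. Without members in evenly spaced runs the densities were 3.61 on 2L and 4.16 on 3L. No paired analysis was possible because inputs 1 and 2, numbered like the ChIP libraries, have no region lists. Since no read counts were at hand, what depth limits could not be examined.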

Other observations

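Among narrow strong candidates, the highest score of the series list on 2L, 3L and 3R lay outside the replicate lists. The region on 3R from 8315899 to 8317980, 2082 bp wide, scored 4.75, above the 4.28 of the strongest member, and that from 8307951 to 8310015 scored 3.54. Both stood in a row of strong regions. To their left lay the member from 8301986 to 8304970, with 2.99 in both replicates, and to their right a wider region from 8321226 to 8326384 with 2.10 and 1.73 and another from 8327112 to 8337253 with 2.99 and 2.98. Neither replicate list had a region at the 2 places, and why was not tested.

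The 17 candidates that were in neither replicate list were all narrower than the narrowest member. Their widths ran from 1001 to 2082 bp, with a median of 1047 bp, and 12 were narrower than 1301 bp, the smallest width in either replicate list. Their median score was 2.44. The scores of 12 of the 17 were repeated exactly elsewhere in the series list, against 1 of the 293 members. The share over all enriched regions is not given here, so repeated scores are not read as particular to the 17. Why the 17 were absent was not tested, and absence from the replicate lists does not show that signal was missing there.

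The row of 6 regions on 2L, which holds the narrowest member, had a median spacing of 5043 bp. Drosophila carries its replication-dependent histone genes as a tandem array on 2L. In the RefSeq gene table of release 6, the 23 genes of the linker histone H1, all on 2L, had a median spacing of 5045 bp between neighbouring starts, with 21 of 22 spacings between 4 and 6 kb. The comparison is of spacings alone, made after the row was seen. Positions of both releases were not matched, so whether the row lies on these genes was not tested.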
